A study of Mus musculus with 28 samples.

Results

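The translatome of the mouse retina was compared between the embryonic stage E17.5 and the postnatal stage P0.5, the interval around birth. Genes were taken as measured when they reached 1 FPKM, a unit that divides the fragments on a gene by transcript length and by library size, in at least 2 of the 4 retinal libraries of these stages, which held for 2246 of the 23995 genes listed (9.36%). A gene was described as above or below when both P0.5 libraries lay on 1 side of both E17.5 libraries, and otherwise its stages overlapped. The series holds 28 samples, of which 4 (2 per stage) make this comparison. Set beside them are 4 libraries each of Cre-positive and Cre-negative superior colliculus (SC) from the same 2 stages and 4 later retinal libraries, 2 of P7.5 and 2 of adults, so that 16 libraries are used. All but the Cre-negative SC, whose C57BL/6 animals have the RiboTag allele without Cre, came from C57BL/6 mice carrying the RiboTag allele, in which Cre switches the ribosomal protein gene Rpl22 to a form tagged with hemagglutinin (HA), together with Pax6-alpha-Cre. The Cre is expressed transiently in progenitors of the peripheral retinal primordium, so that the descendants of these cells, of several retinal cell types, carry tagged ribosomes and the central retina largely does not. The samples are labelled retina, while the methods describe the homogenization of 3 pooled eyes for an immunoprecipitation with an HA antibody. Retinal libraries without Cre were not analysed here, so the retinal background of the precipitation is unknown, and the labels do not say whether replicates came from separate litters, so p-values measure only the spread between these libraries.

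Translating ribosome affinity purification recovers the mRNAs held by tagged ribosomes, and its read-out depends on the abundance of an mRNA, on how many ribosomes it carries and on how many cells carry the tag. In the rodent retina around birth, the ganglion cells (RGCs), whose axons form the optic nerve, have been born, the last of the early-born neurons are leaving the cell cycle, rod photoreceptors are being produced in large numbers, and bipolar cells and Müller glia are still to come. In a bulk library of this kind, fewer cells of a type and less RNA per cell cannot be told apart.

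The files hold no read totals, and the depth estimated from the spacing of values among genes with a single transcript was 9624000 and 9040000 fragments at E17.5 and 7078000 and 10865000 at P0.5. For a transcript of 2 kb, 3 fragments then correspond to 0.138 to 0.212 FPKM, below which a value is indistinguishable from 0. Replicate 2 of E17.5 stood apart, with 4596 genes at 1 FPKM or more against 1668 to 1835 in the other 3 libraries, and 543 of the 2246 genes passed through this library and just 1 other. Over the measured genes, Pearson's r of log2(FPKM + 1) was 0.740 between the E17.5 replicates and 0.903 between the P0.5 replicates, and r reached 0.899 between E17.5 replicate 1 and P0.5 replicate 2, all as descriptions across genes. The first principal component (65.1% of the variance) set E17.5 replicate 2 (score 1.31) apart from E17.5 replicate 1 (-0.74) and P0.5 replicate 2 (-0.69), and the second (24.9%) divided the stages. An exact 0 can be a failed estimate here, since Actb, Tubb5 and Set were listed at 0 in E17.5 replicate 1 and in P0.5 replicate 2, beside 100 FPKM or more in the other replicate. Rpl22 itself, the gene that is tagged, was at 0.420 and 6.74 FPKM at E17.5 and 0.496 and 0.461 FPKM at P0.5, so it reached 1 FPKM in 1 library and was not among the measured genes.

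No gene passed the test between the stages. Limma on log2(FPKM + 1) called 0 genes higher and 0 lower among the 2246 (0% in each direction, Benjamini-Hochberg adjusted p below 0.05 required), the smallest adjusted p was 0.767, and an unadjusted p under 0.05 was reached by 15 genes higher and 125 lower at P0.5. What follows is therefore a description of values. Both P0.5 libraries lay above both E17.5 libraries for 128 genes (5.7%) and below for 685 genes (30.5%), and the stages of the other 1433 genes overlapped. This balance followed the scaling, which was FPKM as deposited, FPKM divided by each library's median ratio to the geometric mean over genes above 0 in all 4 libraries, or log2 values forced to the same distribution by quantile normalization. The median log2 difference over all measured genes was -0.56 as deposited, 0.29 after median-ratio scaling and 0.02 after quantile normalization. With median-ratio scaling 632 genes (28.1%) lay above and 347 (15.4%) below, and with quantile normalization 381 (17%) and 438 (19.5%), so the share of higher genes among those whose stages did not overlap went from 15.7% as deposited to 64.6% and 46.5%. Under all 3 scalings together, 105 genes (4.67%) lay above and 322 (14.3%) below. These genes are meant below by "under all 3 scalings", and differences given without a scaling are from FPKM as deposited. Of the 128 genes above, 89 had at least 1 FPKM in both E17.5 libraries and 21 were under 1 FPKM in both. For the 685 genes below, 303 had at least 1 FPKM in both P0.5 libraries and 266 were under 1 FPKM in both. Genes under 1 FPKM in both libraries of a stage passed the filter through the other stage alone, so the filter fixed their direction as deposited. At the threshold itself, the gene just inside was Hprt (0.266 and 1.13 FPKM at E17.5, 0.716 and 1.002 FPKM at P0.5) and the gene just outside was Nfatc4 (0.999 and 1.80 FPKM at E17.5, 0 and 0 FPKM at P0.5).

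**Figure D1:**
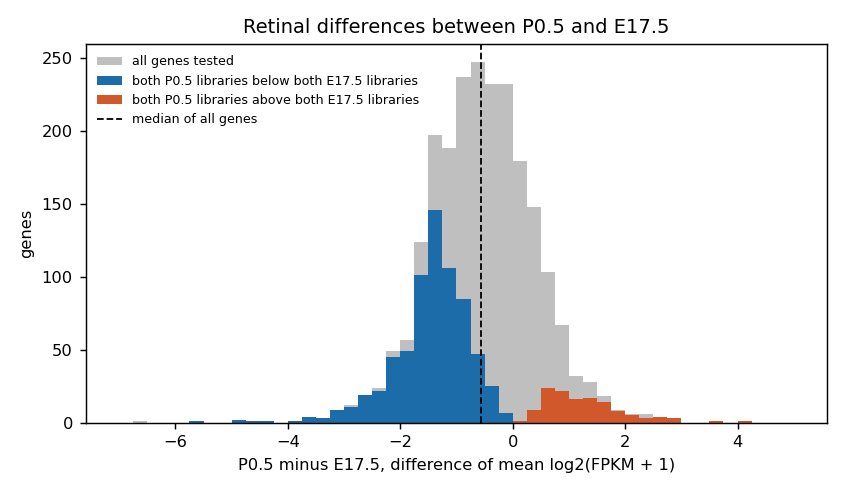
Histogram of the log2 difference between P0.5 and E17.5 (x axis, difference of the mean log2(FPKM + 1), FPKM as deposited) over the 2246 measured genes (y axis, number of genes), with the 685 genes whose P0.5 libraries both lay below in blue and the 128 above in orange. The dashed line marks the median of all genes at -0.56, and the blue genes outnumber the orange ones.

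The genes that stood higher at P0.5 included a group from the lens. Lens fibre cells fill with crystallins, small soluble proteins that give the lens its refractive index, and the gamma crystallins are typical of fibre cells. Of the 24 lens genes, 17 were measured, and both P0.5 libraries were above both E17.5 libraries for 10 of them and below for 0. The same 10 of 17 stood above under all 3 scalings, where 4.67% of all measured genes did. Their median log2 difference was 1.17 as deposited, 2.25 after median-ratio scaling and 1.72 after quantile normalization, beside -0.56, 0.29 and 0.02 over all genes.

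The 6 gamma crystallin genes Cryga to Crygf lie on chromosome 1, and all 6 were among the 10. Their start regions are shown because these related genes stood higher together. The lines give the 100 bases before each RefSeq start (build GRCm38.p6, read 5′ to 3′ on the strand of the gene), with each TATATA in capitals.

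Cryga (chr1:65103364-65103463, minus strand): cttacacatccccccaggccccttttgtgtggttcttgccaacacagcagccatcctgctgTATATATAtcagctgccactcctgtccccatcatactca
Crygb (chr1:65082291-65082390, minus strand): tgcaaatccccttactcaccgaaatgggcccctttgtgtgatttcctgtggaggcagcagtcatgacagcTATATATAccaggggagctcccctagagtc
Crygc (chr1:65073533-65073632, minus strand): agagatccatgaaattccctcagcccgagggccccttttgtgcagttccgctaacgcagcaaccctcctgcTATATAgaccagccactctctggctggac
Crygd (chr1:65063441-65063540, minus strand): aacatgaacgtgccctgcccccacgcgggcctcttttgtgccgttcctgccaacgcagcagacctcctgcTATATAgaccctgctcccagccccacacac
Cryge (chr1:65051164-65051263, minus strand): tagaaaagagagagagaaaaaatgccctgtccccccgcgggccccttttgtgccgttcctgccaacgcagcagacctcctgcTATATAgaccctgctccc
Crygf (chr1:65926422-65926521, plus strand): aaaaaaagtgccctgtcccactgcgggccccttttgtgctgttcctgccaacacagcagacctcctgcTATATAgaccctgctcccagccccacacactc

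The letters TATATA, the core of a TATA box, occurred on the strand of the gene in all 6 windows, with the first base of the first match 18 to 39 bases before the annotated start, and in Cryga and Crygb a second match overlapped the first. Among all 32851 RefSeq start windows of the same 100 bases, 721 (2.19%) held TATATA. The half-site TGCTGA of the Maf response element, searched on both strands, was in 0 of the 6 windows and in 6.95% of all. Only these exact letters were searched, so variants of the half-site were not counted. Both motifs were chosen after the values had been seen, and a match is a description of letters and not of a bound site.

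Cryga (ENSMUSG00000044429, chromosome 1, 65100389 to 65103373, minus strand) was at 37.9 and 32.0 FPKM at E17.5 and 117 and 134 FPKM at P0.5, a 3.60-fold higher mean and a log2 difference of 1.82 ± 0.93 (SE, n = 2 per stage, as for each gene below). Crygd (ENSMUSG00000067299, chromosome 1, 65061872 to 65063452, minus strand) was at 20.5 and 22.7 FPKM at E17.5 and 79.6 and 81.3 FPKM at P0.5, with a log2 difference of 1.85 ± 0.95. Crygf (ENSMUSG00000025945, chromosome 1, 65926520 to 65928307, plus strand) was at 27.9 and 28.5 FPKM at E17.5 and 86.6 and 85.7 FPKM at P0.5, with a log2 difference of 1.58 ± 0.94. For these 3 genes the replicates of a stage differed by far less than the stages did. Cryge was at 31.9 and 33.5 FPKM at E17.5 and 92.5 and 101 FPKM at P0.5, Crygb at 17.8 and 27.3 FPKM at E17.5 and 51.8 and 49.9 FPKM at P0.5 and Crygc at 5.35 and 17.2 FPKM at E17.5 and 17.7 and 23.0 FPKM at P0.5, where E17.5 replicate 2 came close to P0.5 replicate 1. Part of these values may rest on shared reads, since transcripts of Cryge and Crygf were identical at 93.4% of aligned bases, those of Crygd and Crygf at 90.6% and those of Crygd and Cryge at 88%, against 75.2% to 80.3% for the other pairs. How far reads were divided among Crygd, Cryge and Crygf is therefore uncertain.

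Among the beta crystallins, Crybb3 (ENSMUSG00000029352, chromosome 5, 113075839 to 113081584, minus strand) was at 45.4 and 53.9 FPKM at E17.5 and 181 and 156 FPKM at P0.5, with a log2 difference of 1.74 ± 0.92. Crybb2 (ENSMUSG00000042240, chromosome 5, 113058258 to 113070117, minus strand), its neighbour on the same strand, was listed at 0 in both E17.5 libraries and at 5.88 and 5.005 FPKM at P0.5. Crybb2 was thus measured through P0.5 alone and could count only as above, both as deposited and after median-ratio scaling, which leaves a 0 at 0. Cryba2 was at 6.91 and 30.4 FPKM at E17.5 and 36.0 and 40.5 FPKM at P0.5, with both P0.5 values above E17.5 replicate 2 by a small margin. Cryab, a small heat shock protein of lens and other tissues, was at 0.748 and 8.14 FPKM at E17.5 and 19.5 and 16.5 FPKM at P0.5. The stages of the remaining 7 measured lens genes overlapped. Cryaa, the other alpha crystallin and the highest of the list at E17.5, was at 112 and 167 FPKM at E17.5 and 232 and 131 FPKM at P0.5, and Crybb1 was at 26.6 and 63.9 FPKM at E17.5 and 65.5 and 54.7 FPKM at P0.5. Mip, the water channel of fibre cells, was at 11.9 and 1.29 FPKM at E17.5 and 1.14 and 7.501 FPKM at P0.5 and Lim2, a fibre membrane protein, at 0 and 9.52 FPKM at E17.5 and 4.46 and 4.91 FPKM at P0.5, so that replicates differed more than stages. Of the 7 lens genes that were not measured, Lgsn and Dnase2b were listed at 0 in all 4 libraries.

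Summed over the 24 lens genes, the level was 358 and 580 FPKM at E17.5 and 1044 and 935 FPKM at P0.5. In the Cre-positive SC the same sum was 15.3 and 5.95 FPKM at E17.5 and 0.8 and 2.8 FPKM at P0.5. The lens sum of each retinal library was thus higher than that of each of these SC libraries. Whether whole eyes contributed lens RNA to the lysates, and whether its amount differed between stages, was not tested. At later stages Cryga was at 0 and 83.8 FPKM at P7.5 and 0 and 84.6 FPKM in the adult, and in both of the later stages replicate 1, a library with fewer genes at 1 FPKM or more (1165 and 1428) than replicate 2 (3449 and 3692), had next to none of it.

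**Figure D2:**
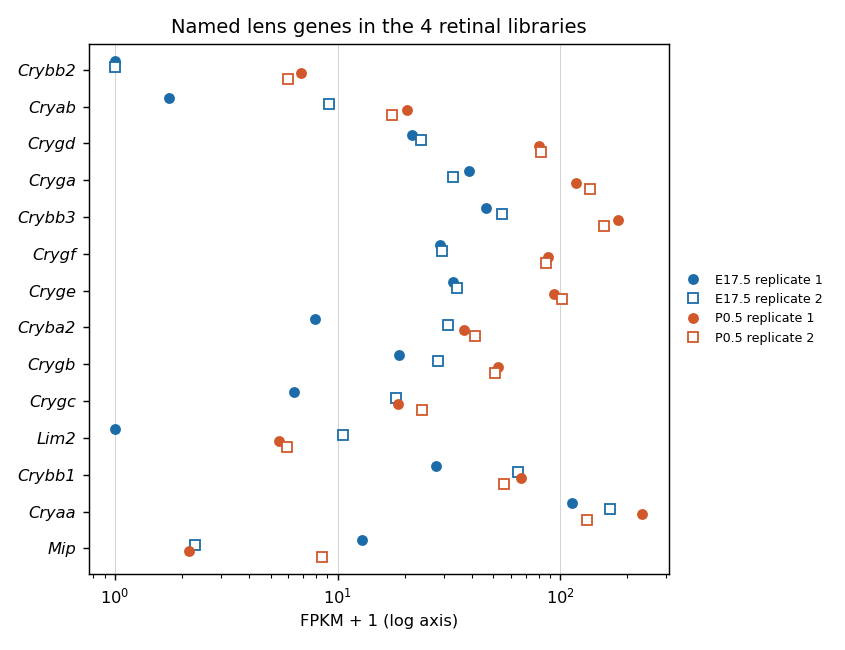
FPKM + 1 (x axis, log scale) of the measured lens genes named in the text in the 4 retinal libraries, with E17.5 in blue, P0.5 in orange, filled circles for replicate 1 and open squares for replicate 2, ordered by log2 difference. For the upper 10 genes both orange points lie to the right of both blue ones, as for Cryga (37.9 and 32.0 against 117 and 134 FPKM), and for the lower 4 genes the colours mix.

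Photoreceptor genes were mostly at or near 0. Of 35, 7 were measured, 2 of them above and 1 below at P0.5, the same under all 3 scalings. Over all measured genes 5.7% were above and 30.5% below as deposited, and 4.67% and 14.3% under all 3 scalings. Opn1sw (ENSMUSG00000058831, chromosome 6, 29376671 to 29388468, minus strand), the short-wavelength cone opsin, was at 6.23 and 2.27 FPKM at E17.5 and 18.1 and 45.3 FPKM at P0.5, with a log2 difference of 2.61 ± 1.10. Rom1 (ENSMUSG00000071648, chromosome 19, 8927391 to 8929356, minus strand), a membrane protein of outer segment discs, was listed at 0 in both E17.5 libraries and at 3.84 and 1.75 FPKM at P0.5. Rom1 was thus measured through P0.5 alone and could count only as above, both as deposited and after median-ratio scaling, which leaves a 0 at 0. Its level was 0.377 and 94.8 FPKM at P7.5 and 129 and 179 FPKM in the adult. Thrb, the thyroid hormone receptor of cones, went the other way at 145 and 945 FPKM at E17.5 and 139 and 33.7 FPKM at P0.5, where E17.5 replicate 1 and P0.5 replicate 1 were close. Crx, a transcription factor of both photoreceptor types, was at 0.115 and 5.29 FPKM at E17.5 and 1.19 and 0.237 FPKM at P0.5 and overlapped. Of the genes below the threshold, Pde6g, the inhibitory subunit of the rod phosphodiesterase, was listed at 0 in both E17.5 libraries and at 1.16 and 0.86 FPKM at P0.5, and Nr2e3, a nuclear receptor of rods, at 0 and 0 against 0.61 and 0.55 FPKM. Aipl1, a photoreceptor cochaperone that was not measured either, went the other way at 0.671 and 4.12 against 0.402 and 0.195 FPKM, and Tulp1 overlapped at 0.0567 and 2.71 against 0.688 and 0.199 FPKM.

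The largest gap between the stages, counted from the nearest pair of libraries on the log2 scale, was that of Zfp367 among the genes above. This zinc finger gene (ENSMUSG00000044934, chromosome 13, 64133018 to 64153202, minus strand) was at 2.38 and 0.298 FPKM at E17.5 and 45.6 and 31.1 FPKM at P0.5, a log2 difference of 4.20 ± 1.07. It was at 0 and 0.261 FPKM at P7.5 and 1.66 and 0.0378 FPKM in the adult, so the level seen at P0.5 was not seen in the later libraries. Ttyh2, a chloride channel family member, was at 536 and 436 FPKM at E17.5 and 2442 and 2685 FPKM at P0.5, and Slc39a1, a zinc transporter, at 287 and 112 FPKM at E17.5 and 1010.1 and 905 FPKM at P0.5. Ndufs6, a subunit of respiratory complex I, was at 1.59 and 1.03 FPKM at E17.5 and 10.7 and 13.2 FPKM at P0.5, and Tpgs1, a subunit of the tubulin polyglutamylase complex, at 0.113 and 0.599 FPKM at E17.5 and 3.48 and 3.60 FPKM at P0.5. Tpgs1 was thus measured through P0.5 alone and as deposited could count only as above. AA465934 was at 9.39 and 2.17 FPKM at E17.5 and 38.1 and 150.4 FPKM at P0.5. Ptges3, a cochaperone of Hsp90, had the highest level of the genes above, at 13044 and 12502 FPKM at E17.5 and 19053 and 18381 FPKM at P0.5, and its replicates were close, but its stages, with a log2 difference of 0.55 as deposited and 0.28 after quantile normalization, were not separate under all 3 scalings. Otub1, a deubiquitinase, at 6486 and 2561 FPKM at E17.5 and 9375 and 12458 FPKM at P0.5, was not separate under all 3 scalings either. Usp22 (3798 and 3576 against 7462 and 4541 FPKM), Arglu1 (2226 and 2605 against 4624 and 5297 FPKM), Frat1 (2122 and 1964 against 3723 and 2579 FPKM) and Twf1 (1827 and 2781 against 5406 and 2981 FPKM) were above under all 3 scalings.

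The widest gaps among the genes below were those of Tsn, Ppp3ca and Gnaq, which take part in RNA transport and in calcium signalling. Tsn (ENSMUSG00000026374, chromosome 1, 118294778 to 118311739, minus strand), which encodes translin, a nucleic acid binding protein of neuronal RNA granules, was at 795 and 290.5 FPKM at E17.5 and 11.5 and 6.51 FPKM at P0.5, a log2 difference of -5.63 ± 1.01. Ppp3ca, the catalytic subunit of calcineurin, was at 79.1 and 119.9 FPKM at E17.5 and 1.73 and 2.98 FPKM at P0.5, with a log2 difference of -4.90 ± 1.04. Gnaq, a G protein alpha subunit that activates phospholipase C, was at 53.0 and 68.3 FPKM at E17.5 and 2.28 and 0.891 FPKM at P0.5, with a log2 difference of -4.62 ± 1.03. The lowest E17.5 value of these 3 genes was many times the highest P0.5 value. Rnd3, a small GTPase that lowers actomyosin contractility, was at 35.6 and 208 FPKM at E17.5 and 1.48 and 2.69 FPKM at P0.5, and G3bp1, a stress granule protein, at 21.9 and 165 FPKM at E17.5 and 2.34 and 1.67 FPKM at P0.5, with the E17.5 replicates far apart in both. Gbas was at 552 and 589 FPKM at E17.5 and 55.2 and 51.4 FPKM at P0.5, with replicates close at each stage and a log2 difference of -3.39 ± 0.88. Hsp90ab1, a cytosolic chaperone, was at 60.0 and 41.8 FPKM at E17.5 and 4.99 and 5.36 FPKM at P0.5, and the 12 largest gaps also held Ube2l3, Wbp11, Taok1 and Sncg. All 12 stood below under all 3 scalings, and among those named Ube2l3 and Wbp11 were measured through E17.5 alone. Sod1, the cytosolic superoxide dismutase, was the most abundant gene below under all 3 scalings among those named, at 4938 and 4239 FPKM at E17.5 and 639 and 729 FPKM at P0.5, a 6.71-fold higher mean at E17.5. Ncam1, a neural adhesion molecule, at 9059.9 and 6767 FPKM at E17.5 and 5090.1 and 3474 FPKM at P0.5, had a log2 difference of -0.90 as deposited and 0.24 after median-ratio scaling, so its direction depended on the scaling. Hsf2 likewise went from -0.98 to 0.15.

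Several of these levels were high again later. Tsn was at 83.8 and 480.5 FPKM at P7.5 and 66.2 and 499 FPKM in the adult, Ppp3ca at 37.0 and 91.4 FPKM at P7.5 and 0 and 133 FPKM in the adult and Gbas at 15.4 and 869 FPKM at P7.5 and 188 and 825 FPKM in the adult. In replicate 2 of both later stages these 3 genes were therefore far above the P0.5 libraries, and in replicate 1 of the adult Ppp3ca was listed at 0.

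Most measured RGC markers were lower in both P0.5 libraries. Of all measured genes 30.5% were below as deposited and 14.3% under all 3 scalings. Of the 23 genes of the RGC list 7 were measured, 0 were above and 6 below as deposited, and 4 were below under all 3 scalings. Their median log2 difference was -1.92 as deposited, -0.79 after median-ratio scaling and -1.39 after quantile normalization. Sncg (ENSMUSG00000023064, chromosome 14, 34370274 to 34374789, minus strand), gamma-synuclein of RGC somata and axons, was at 40.7 and 35.0 FPKM at E17.5 and 5.04 and 3.82 FPKM at P0.5, a log2 difference of -2.84 ± 1.02. Isl1 (ENSMUSG00000042258, chromosome 13, 116298281 to 116309689, minus strand), a LIM homeodomain factor needed for RGC differentiation that other retinal neurons also use, was at 18.2 and 3.89 FPKM at E17.5 and 0.596 and 0.272 FPKM at P0.5, with a log2 difference of -2.77 ± 1.09. Klf7, a Krüppel-like factor linked to axon growth, was at 1.35 and 8.58 FPKM at E17.5 and 1.33 and 0.701 FPKM at P0.5. In Klf7 the nearest values of the stages were almost equal. Ebf1 at 439 and 367 FPKM at E17.5 and 170.2 and 64.9 FPKM at P0.5 and Nefl, the light neurofilament, at 1.20 and 4.53 FPKM at E17.5 and 0.767 and 0.848 FPKM at P0.5 were below as deposited and overlapped under another scaling. Isl1 and Nefl, under 1 FPKM in both P0.5 libraries, were measured through E17.5 alone and as deposited could count only as below. Pou4f1, the POU factor Brn3a, was the most abundant marker and overlapped, at 2036 and 7381 FPKM at E17.5 and 4036 and 1226 FPKM at P0.5. Of the 16 RGC markers not measured, Rbpms was at 0.138 and 3.98 against 0.306 and 0.217 FPKM, Thy1 at 0.0667 and 0.990 against 0.180 and 0.466 FPKM, Pou4f2 at 0.205 and 0.253 against 0.0923 and 0.0904 FPKM and Slc17a6 at 0 and 0.159 against 0.0338 and 0 FPKM, so each of these commonly used RGC markers was under 1 FPKM in at least 3 of the 4 libraries.

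Neurogenic factors and progenitor genes were read next. Of 19 neurogenic factors 7 were measured, 0 above and 2 below, both under all 3 scalings. Of all measured genes 30.5% were below as deposited and 14.3% under all 3 scalings. Atoh7 (ENSMUSG00000036816, chromosome 10, 63099651 to 63101279, plus strand), the bHLH factor that gives progenitors the competence to form RGCs, was at 1.92 and 2.08 FPKM at E17.5 and listed at 0 in both P0.5 libraries, and it was listed at 0 in the 4 later retinal libraries as well. Atoh7 was thus measured through E17.5 alone and as deposited could count only as below. Median-ratio scaling leaves a 0 at 0, so there, too, its direction was fixed. Sox4, a SoxC factor of RGC differentiation, was at 22.2 and 8.59 FPKM at E17.5 and 0.605 and 1.22 FPKM at P0.5, with a log2 difference of -2.98 ± 1.06. Its relative Sox11 overlapped, at 1008 and 7031 FPKM at E17.5 and 2200.4 and 1199 FPKM at P0.5, as did Otx2, a factor of photoreceptor and bipolar fate, at 0.474 and 11.4 FPKM at E17.5 and 3.08 and 1.43 FPKM at P0.5, and Hes6, an inhibitor of Hes1, at 3.32 and 35.7 FPKM at E17.5 and 29.6 and 17.2 FPKM at P0.5.

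Of 17 progenitor genes 12 were measured, with 0 above and 5 below as deposited, where 30.5% of all measured genes were, and 2 below under all 3 scalings, a share near the 14.3% of all genes. Those 2 were the eye field factors Six6, at 3.95 and 7.64 FPKM at E17.5 and 1.82 and 1.31 FPKM at P0.5, and Lhx2, at 1.11 and 2.30 FPKM at E17.5 and 0.529 and 0.354 FPKM at P0.5. Lhx2 was thus measured through E17.5 alone and as deposited could count only as below. Pax6, at 3.85 and 13.5 FPKM at E17.5 and 2.06 and 2.56 FPKM at P0.5, Six3 and Id3 were below as deposited but not under all 3 scalings. Sox9, the most abundant factor of the list, was at 557 and 705 FPKM at E17.5 and 614 and 1158 FPKM at P0.5 and overlapped, and so did Sfrp2, a secreted Wnt regulator, at 2575 and 257 FPKM at E17.5 and 554 and 794 FPKM at P0.5. Of 38 cell cycle genes 18 were measured, with 0 above and 7 below, and 4 of them were below under all 3 scalings, to be read against the same 30.5% and 14.3%. These were Top2a, topoisomerase of dividing cells, at 6.83 and 18.8 FPKM at E17.5 and 2.42 and 1.31 FPKM at P0.5, Cenpa, the centromeric histone, at 9.50 and 40.4 FPKM at E17.5 and 4.82 and 2.49 FPKM at P0.5, Cdt1, a licensing factor of replication origins, at 2.58 and 10.1 FPKM at E17.5 and 1.32 and 1.18 FPKM at P0.5, and Mcm7, a subunit of the replicative helicase, at 1.497 and 6.35 FPKM at E17.5 and 1.01 and 1.11 FPKM at P0.5. The median difference of the list was -0.44 as deposited, above that of all genes, and 0.38 after median-ratio scaling. Ccnd1, the D cyclin of retinal progenitors, was at 154 and 47.0 FPKM at E17.5 and 41.7 and 22.4 FPKM at P0.5, below as deposited and overlapping under another scaling. Pcna (0.768 and 8.27 against 4.26 and 4.66 FPKM) and Rrm2 (48.0 and 9.73 against 44.3 and 83.7 FPKM) overlapped.

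Growth cone and cytoskeleton genes were measured for 27 of 31, with 0 above and 9 below, where 30.5% of all genes were below as deposited, and 3 below under all 3 scalings, against 14.3% of all genes. The 3 were neuronal growth genes. Stmn2 (ENSMUSG00000027500, chromosome 3, 8509360 to 8561606, plus strand), the microtubule-destabilizing stathmin of growth cones, was at 13.7 and 26.9 FPKM at E17.5 and 1.46 and 0.684 FPKM at P0.5, a log2 difference of -3.31 ± 1.04. Gap43 (ENSMUSG00000047261, chromosome 16, 42248442 to 42340651, minus strand), a membrane protein of growing axons, was at 5.64 and 24.0 FPKM at E17.5 and 0.747 and 0.642 FPKM at P0.5, with a log2 difference of -2.93 ± 1.10. Gap43 was thus measured through E17.5 alone and as deposited could count only as below. Mapt, which encodes tau, was at 3.20 and 12.1 FPKM at E17.5 and 1.61 and 1.32 FPKM at P0.5. Among the tubulins, Tubb2a was below as deposited at 6.69 and 12.5 FPKM at E17.5 and 3.23 and 2.98 FPKM at P0.5, while the neuronal Tubb3 overlapped at 7.32 and 57.2 FPKM at E17.5 and 26.5 and 13.9 FPKM at P0.5, and so did Tuba1a at 8.30 and 73.2 FPKM at E17.5 and 59.5 and 24.2 FPKM at P0.5. Dpysl2, the most abundant gene of the list without a 0, was at 19410.5 and 7465 FPKM at E17.5 and 19872 and 12289 FPKM at P0.5 and overlapped too. Synaptic genes were measured for 7 of 34, with 2 below, and 1 of them, Syt11, under all 3 scalings. Of the 34 guidance genes 4 were measured. Robo1, a Slit receptor, was above under all 3 scalings at 3.73 and 4.05 FPKM at E17.5 and 5.68 and 5.94 FPKM at P0.5, while Ncam1 and Efnb1 were below as deposited but not under all 3 scalings. Syt11 and Efnb1, too, were measured through E17.5 alone.

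**Figure D3:**
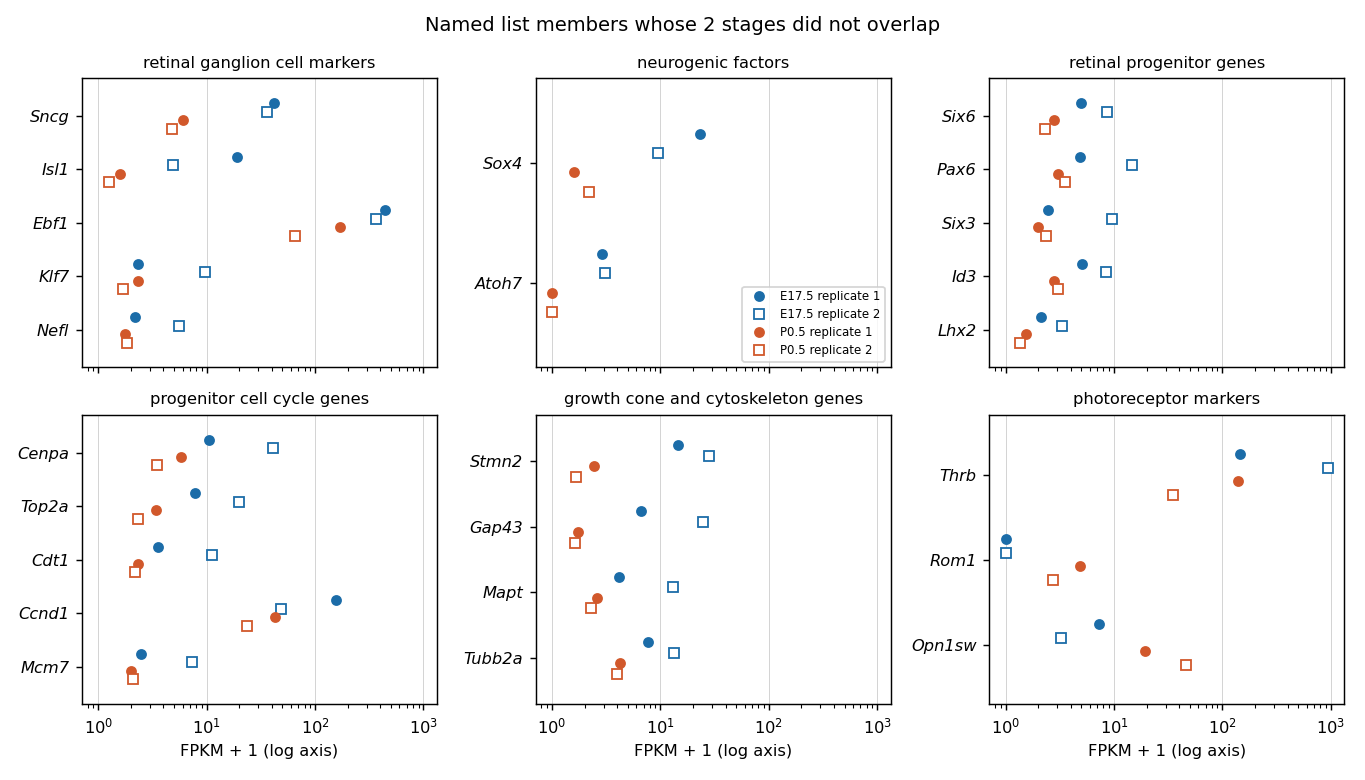
FPKM + 1 (x axes, log scale) in the 4 retinal libraries for the named members of 6 gene lists whose stages did not overlap as deposited, with E17.5 in blue, P0.5 in orange, filled circles for replicate 1 and open squares for replicate 2. The points of P0.5 lie to the left for each gene shown but Rom1 and Opn1sw, and the gap is widest for genes such as Sncg, Stmn2 and Gap43 and almost closed for Klf7 and Ccnd1.

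Several genes of glycolysis and of the response to low oxygen were lower in both P0.5 libraries. Of 27 genes of glycolysis and the citric acid cycle 11 were measured, 0 above, 6 below, and 5 below under all 3 scalings, where 30.5% and 14.3% of all measured genes were below. Ldha (ENSMUSG00000063229, chromosome 7, 46841475 to 46855627, plus strand), which turns pyruvate into lactate, was at 9.99 and 63.8 FPKM at E17.5 and 2.03 and 1.71 FPKM at P0.5, a log2 difference of -3.22 ± 1.19. Hk2, the inducible hexokinase, was at 8.67 and 60.6 FPKM at E17.5 and 5.07 and 2.41 FPKM at P0.5, and Gpi1, the next enzyme of the pathway, at 1.57 and 12.6 FPKM at E17.5 and 1.34 and 0.741 FPKM at P0.5. The other 2 were Ldhb and Mdh1, the cytosolic malate dehydrogenase. Pkm, the pyruvate kinase, was at 9.58 and 84.6 FPKM at E17.5 and 20.9 and 12.4 FPKM at P0.5 and Aldoa, an aldolase, at 6.31 and 40.1 FPKM at E17.5 and 11.1 and 5.77 FPKM at P0.5, with overlapping stages. Of 13 hypoxia targets, Ldha and Hk2 among them, 4 were measured, and all 4 were below under all 3 scalings, beside the same 14.3%. The other 2 were Slc2a1, the glucose transporter of blood barriers and retina, at 9.45 and 28.0 FPKM at E17.5 and 3.74 and 3.66 FPKM at P0.5, and Ndrg1, at 2.95 and 6.00 FPKM at E17.5 and 1.55 and 0.337 FPKM at P0.5. In Ldha, Hk2 and Gpi1 the value of E17.5 replicate 2 was many times that of replicate 1, and the separation rests on the smaller distance of replicate 1 from P0.5.

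For genes of the translation machinery the direction depended on the scaling. Cytosolic ribosomal protein genes were measured for 56 of 77, with 0 above and 15 below as deposited, 15 above and 7 below after median-ratio scaling, and 0 above and 7 below under all 3 scalings, where 14.3% of all genes were below. Of all measured genes 5.7% were above and 30.5% below as deposited, and 28.1% and 15.4% after median-ratio scaling. Their median difference was -0.54 as deposited, near the -0.56 of all genes, and 0.50 after median-ratio scaling. Among the 7 were Rps25, at 225 and 1764 FPKM at E17.5 and 172 and 100.2 FPKM at P0.5, Rpl29, Rpl6, Rpl7a, Rpl27a and Rpl5. Rplp1 (131 and 147 against 55.1 and 79.1 FPKM) and Rps15 (190.4 and 193 against 95.5 and 129.5 FPKM) were below as deposited and had differences of 0.07 and 0.35 after median-ratio scaling. Translation factors were measured for 31 of 63, with 1 above, Eif3f, and 8 below, of which Eif3h (7.81 and 28.6 against 3.86 and 2.23 FPKM) and Eif4g1 (2.17 and 5.34 against 0.805 and 0.879 FPKM) were below under all 3 scalings. These counts did not exceed the shares of all measured genes, as deposited or under all 3 scalings. Eif4g1 was measured through E17.5 alone. Eif4a1, the helicase of cap binding, was at 44.1 and 41.9 FPKM at E17.5 and 34.7 and 27.1 FPKM at P0.5, a log2 difference of -0.47 as deposited but 0.62 and 0.03 after the other scalings.

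Oxidative phosphorylation subunits were measured for 62 of 84, with 4 above and 10 below as deposited, 24 above and 2 below after median-ratio scaling, and 4 above and 2 below under all 3 scalings, where 4.67% of all measured genes were above and 14.3% below. As deposited 5.7% of all measured genes were above and 30.5% below, and after median-ratio scaling 28.1% and 15.4%. The 4 above were Ndufs6, Cyc1, the cytochrome c1 of complex III, at 0.102 and 2.07 FPKM at E17.5 and 4.13 and 2.83 FPKM at P0.5, Uqcrq, another subunit of complex III, at 0.650 and 8.43 FPKM at E17.5 and 9.53 and 12.5 FPKM at P0.5, and Cox4i1, of complex IV, at 30.3 and 50.1 FPKM at E17.5 and 58.5 and 63.3 FPKM at P0.5. The 2 below were the complex I subunits Ndufa10 and Ndufc2. Proteasome subunits were measured for 23 of 39, with 0 above, 9 below as deposited, where 30.5% of all genes were, and 3 below under all 3 scalings, a share near the 14.3% of all genes. The 3 were the core subunits Psma7 (30.7 and 62.4 against 10.6 and 7.61 FPKM) and Psmb1 (30.4 and 92.7 against 17.7 and 16.7 FPKM) and the deubiquitinase Psmd14 of the lid. Of 43 RNA-binding genes 25 were measured, with 1 above and 10 below, and 6 below under all 3 scalings, to be read against the same shares. Hnrnpu, a nuclear matrix protein, was the 1 above, at 71.6 and 59.6 FPKM at E17.5 and 124 and 159 FPKM at P0.5. The 6 below were Hnrnpc, at 48.2 and 125 FPKM at E17.5 and 24.6 and 6.17 FPKM at P0.5, Hnrnpdl, Celf1, Celf2, Tardbp and Hnrnpm. Histone genes were measured for 14 of 84, and 51 were listed at 0 in all 4 libraries. As deposited 2 were above and 3 below, and under all 3 scalings 2 were above and 0 below, beside the same shares of all genes. H2afy, a macroH2A variant, was below at 74.4 and 38.1 FPKM at E17.5 and 4.87 and 7.19 FPKM at P0.5, and the other 2 below were Hist1h4i and Hist3h2a. H2afj, an H2A variant, was above at 83.1 and 159 FPKM at E17.5 and 219 and 347 FPKM at P0.5, and Hist1h2bj was listed at 0 in both E17.5 libraries and at 2.21 and 1.67 FPKM at P0.5. Hist1h2bj could therefore count only as above, as deposited and after median-ratio scaling. Libraries primed on poly(A) tails hold few mRNAs of replication-dependent histones, which lack the tail.

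**Figure D4:**
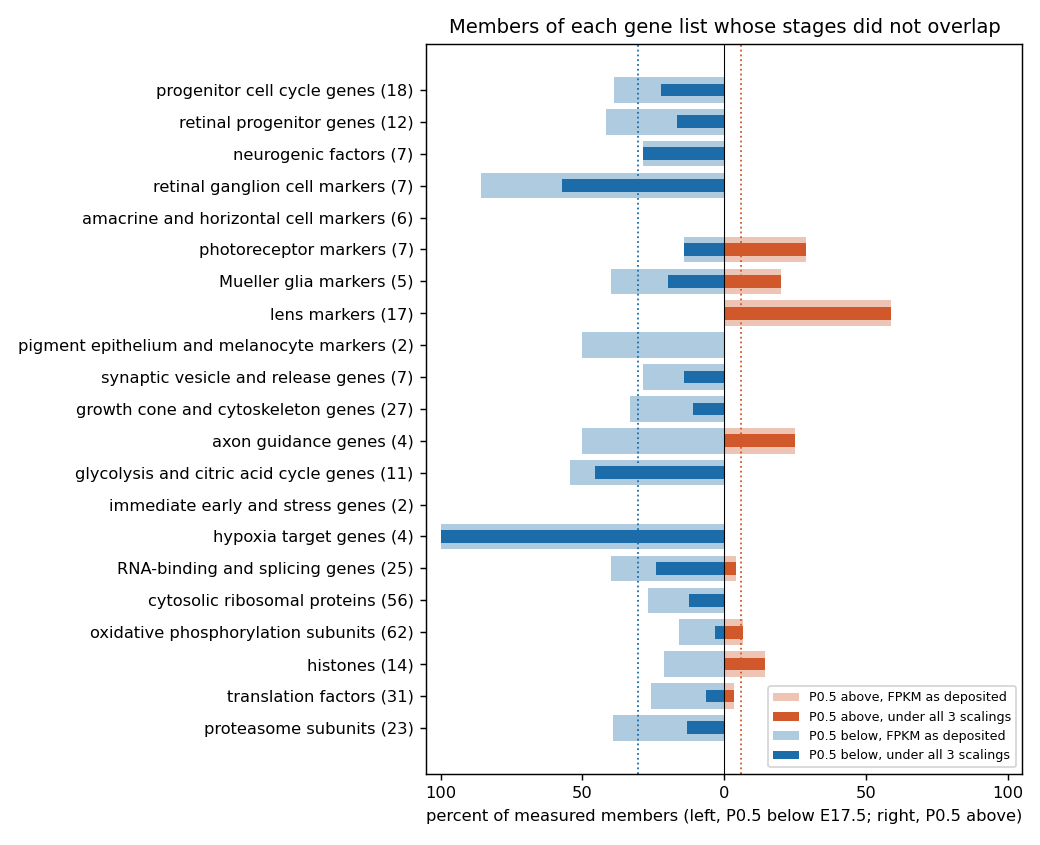
Percent of the measured members of each gene list (number in brackets) whose P0.5 libraries both lay below (left, blue) or above (right, orange) both E17.5 libraries, with pale bars for FPKM as deposited and dark bars for all 3 scalings together. The dotted lines give the same shares over all 2246 genes as deposited (30.5% below and 5.7% above), and the lens bar reaches 10 of 17 genes on the right.

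Because E17.5 replicate 2 stood apart, the lists were also counted without it, against E17.5 replicate 1 alone, a choice made after seeing the data. Of all measured genes 894 (39.8%) then lay above and 857 (38.2%) below, with a median log2 difference of 0.06. Lens genes lay above for 15 of 17 and below for 2, with a median of 1.70. RGC markers lay below for 6 of 7 and above for 0, with a median of -2.05, and the hypoxia targets lay below for 4 of 4. A gene whose P0.5 libraries were already separate from both E17.5 libraries keeps its direction here by construction. That fixed the 6 RGC markers, the 4 hypoxia targets and 10 of the 15 lens genes in advance, so their counts are no independent check. For 5 other lists the counts in both directions were closer. Cell cycle genes were above for 6 and below for 7 of 18, progenitor genes 5 and 6 of 12, growth cone genes 10 and 10 of 27, proteasome subunits 11 and 9 of 23 and ribosomal protein genes 22 and 16 of 56. Oxidative phosphorylation subunits were above for 39 and below for 12 of 62, with a median of 0.94. Other lists also leaned 1 way. Amacrine and horizontal cell genes were above for 4 and below for 0 of 6, photoreceptor genes 4 and 1 of 7, histones 10 and 3 of 14 and RNA-binding genes 5 and 12 of 25.

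Markers of other cells gave few values. Of 19 amacrine and horizontal cell genes 6 were measured and all 6 overlapped, with Tfap2b, an AP-2 factor of amacrine cells, at 178.1 and 787 FPKM at E17.5 and 433 and 222 FPKM at P0.5. None of the 9 bipolar cell genes was measured, and 6 were listed at 0 in all 4 libraries. Of 11 Müller glia genes 5 were measured, with 1 above and 2 below as deposited, where 5.7% and 30.5% of all measured genes were. Apoe was above under all 3 scalings at 1.94 and 6.90 FPKM at E17.5 and 7.29 and 7.30 FPKM at P0.5, a narrow gap. Slc1a3, the glutamate transporter of radial glia, was below under all 3 scalings at 20.1 and 3.98 FPKM at E17.5 and 0.834 and 0.727 FPKM at P0.5. Glul was below as deposited only, at 50.6 and 1.92 FPKM at E17.5 and 0.213 and 0.660 FPKM at P0.5. Slc1a3 and Glul were measured through E17.5 alone, and Dkk3 and Vim overlapped. Pigment cell markers summed to 4.60 and 23.1 FPKM at E17.5 and to 3.3 and 2.3 FPKM at P0.5 (2 of 14 measured), corneal and mesenchymal markers to 1.44 and 13.4 FPKM and to 1.5 and 0.8 FPKM (0 of 19 measured), and markers of blood, vessels and microglia to 9.71 and 22.0 FPKM and to 2.3 and 2.5 FPKM (0 of 17 listed). All 3 sums were highest in E17.5 replicate 2, and their part in the genes that stood lower at P0.5 was not tested.

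The same interval was then compared with RGC axons in the SC, where immunoprecipitation from Cre-positive animals recovers axonal ribosomes, using the difference between the retinal and the axonal change over the 8 libraries. Of 2243 genes with a value in all 8 libraries, the retinal change was lower than the axonal change for 191 genes (8.52%) and higher for 4 (0.178%) without a block (limma, adjusted p below 0.05). The methods speak of retina and axons of the same animals, and same-numbered retinal and Cre-positive SC libraries of a stage deviated together. With each stage's replicates as blocks, 0 genes passed in either direction (smallest adjusted p 0.0546, unadjusted p under 0.05 for 58 genes higher and 517 lower), and 0 passed also without either retinal P0.5 library or either Cre-positive SC library of P0.5. What follows describes the 191 and the 4 genes. The choice of the 191 itself favours a low retinal and a high axonal difference. Their axonal difference was above 0 in all 191, with a median of 5.99, against 0.19 over the 2243 genes. The median retinal difference of the 191 was -0.93, against -0.56 over the 2243. Of the 191 genes, 103 (53.9%) were below in retina, against 30.5% of the 2243.

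The 4 Cre-negative SC libraries, 2 per stage, give the background of the precipitation. At E17.5 both Cre-positive libraries lay above both Cre-negative ones for 182 of the 2243 genes and for 11 of the 191, and the higher Cre-negative library exceeded both Cre-positive ones for 1112 and for 136. At P0.5 both Cre-positive libraries lay above for 926 of the 2243 genes and for 164 of the 191, a count that the choice of the 191 favours. The E17.5 side of the axonal change was therefore at or under background for most of these genes.

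Stmn2 in the Cre-positive SC was at 65.2 and 5.15 FPKM at E17.5 and 587 and 408 FPKM at P0.5, and in the Cre-negative SC at 244 and 0 FPKM at E17.5 and 0.257 and 0.0976 FPKM at P0.5. Its retinal change minus its axonal change was -7.92 ± 1.88 (SE, limma, adjusted p = 0.0456, and 0.0741 with the block) on the log2 scale. At P0.5 it was thus low in retina and high in axons, while at E17.5 1 Cre-negative library exceeded both Cre-positive ones. Nefl had a difference of -5.77 ± 1.21 (SE, limma, adjusted p = 0.0324, and 0.0551 with the block), with 0.0711 and 0.0424 FPKM at E17.5 and 47.5 and 17.54 FPKM at P0.5 in the Cre-positive SC and 12.7 and 0.0379 FPKM at E17.5 and 4.22 and 2.82 FPKM at P0.5 in the Cre-negative SC. Idh3g, a subunit of the citric acid cycle enzyme isocitrate dehydrogenase, was at 0.225 and 0.135 FPKM at E17.5 and 145 and 92.6 FPKM at P0.5 in the Cre-positive SC and at 65.2 and 0 FPKM at E17.5 and 0.256 and 0 FPKM at P0.5 in the Cre-negative SC, and differed by -7.999 ± 1.45 (SE, limma, adjusted p = 0.0248, and 0.0546 with the block). Mdh1 differed by -7.02 ± 1.25 (SE, limma, adjusted p = 0.0248, and 0.0546 with the block). The ATP synthase subunit Atp5o differed by -7.95 ± 1.503 (SE, limma, adjusted p = 0.0268, and 0.0546 with the block), with 0.219 and 1.19 FPKM at E17.5 and 177.6 and 132 FPKM at P0.5 in the Cre-positive SC. In the Cre-negative SC Atp5o was at 203 and 22.8 FPKM at E17.5 and 0 and 0 FPKM at P0.5, so at E17.5 both background libraries were above both Cre-positive ones. Among the proteasome genes, Psma7 was at 0.335 and 0.404 FPKM at E17.5 and 100.2 and 54.1 FPKM at P0.5 in the Cre-positive SC and at 96.8 and 0 FPKM at E17.5 and 0 and 0 FPKM at P0.5 in the Cre-negative SC, with a difference of -7.93 ± 1.39 (SE, limma, adjusted p = 0.0248, and 0.0546 with the block), and Psmb4 differed by -9.00 ± 1.90 (SE, limma, adjusted p = 0.0338, and 0.0546 with the block). In Nefl, Idh3g and Psma7, too, 1 Cre-negative library of E17.5 exceeded both Cre-positive ones. Cyc1 was the exception among these metabolic genes in that its retinal level was also higher at P0.5, and its difference of -5.45 ± 1.25 (SE, limma, adjusted p = 0.0408, and 0.0622 with the block) came from a larger axonal one of 6.72. For Tsn, Gnaq, Ppp3ca and Eif3h the Cre-positive and Cre-negative SC libraries of P0.5 overlapped. For the proteasome subunit Psmd1 both Cre-negative libraries of P0.5 (93.3 and 44.8 FPKM) exceeded both Cre-positive ones (22.7 and 9.07 FPKM). Tsn was at 271 and 45.3 FPKM at E17.5 and 993 and 1138 FPKM at P0.5 in the Cre-positive SC and at 108 and 18.9 FPKM at E17.5 and 1495 and 1042 FPKM at P0.5 in the Cre-negative SC, so its difference of -8.88 ± 1.55 (SE, limma, adjusted p = 0.0248, and 0.0546 with the block) is not set apart from background. Gap43 and Sncg did not pass in either fit, with Gap43 at -5.27 ± 2.38 (SE, limma, adjusted p = 0.246, and 0.291 with the block) and Sncg at -2.75 ± 0.996 (SE, limma, adjusted p = 0.145, and 0.152 with the block).

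The 4 genes with the higher retinal change in the fit without the block were Crybb2, Mrpl55, P4hb and Tmem55a. Crybb2, listed at 0 in all 4 Cre-positive SC libraries, differed by 2.68 ± 0.52 (SE, limma, adjusted p = 0.029, and 0.0567 with the block). Its axonal difference was 0, so this value is its retinal difference, which in the retinal fit was 2.68 ± 0.79 (SE, limma, adjusted p = 0.767). The 4 SC values of 0 add libraries without spread to the fit, so the smaller p does not show that the tissues changed differently. For Mrpl55, P4hb and Tmem55a the axonal level was lower in both P0.5 libraries than in both E17.5 libraries. Mrpl55, a mitochondrial ribosomal protein gene, was at 0.864 and 1.29 FPKM at E17.5 and 1.39 and 1.03 FPKM at P0.5 in retina, and at 32.5 and 43.7 FPKM at E17.5 and listed at 0 at P0.5 in the Cre-positive SC. Among the other lens genes the difference was 2.79 ± 1.27 (SE, limma, adjusted p = 0.251, and 0.232 with the block) for Crybb3 and 2.62 ± 1.30 (SE, limma, adjusted p = 0.287, and 0.246 with the block) for Cryga, which did not pass in either fit.

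**Figure D5:**
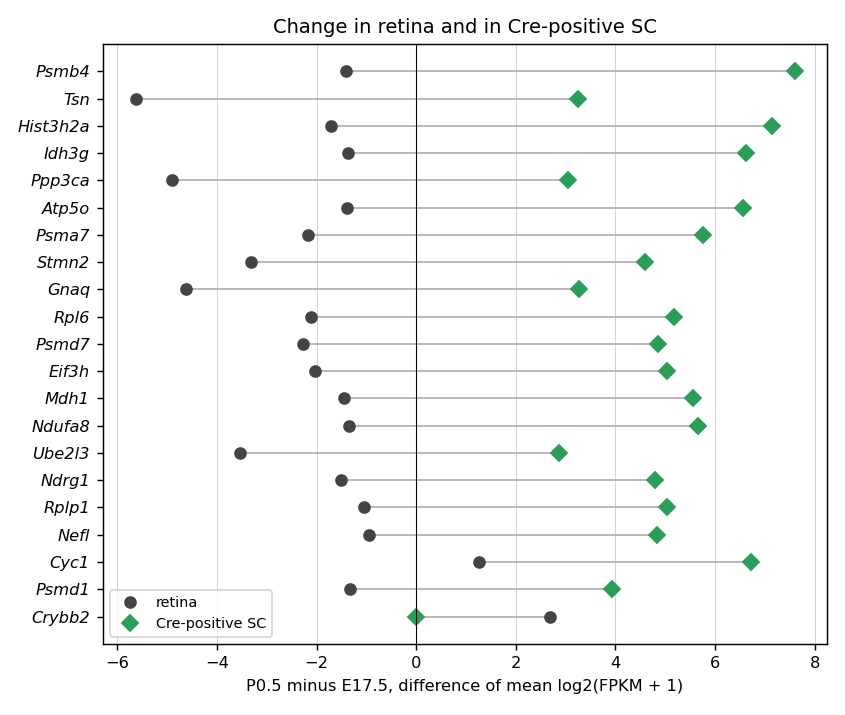
Difference between P0.5 and E17.5 (x axis, mean log2(FPKM + 1)) in retina (circles) and in Cre-positive SC (diamonds) for the 21 named genes whose retinal and axonal changes differed in the fit without the replicate block. For 20 of the 21 the axonal difference lies to the right of the retinal one, with retinal minus axonal differences of -8.88 in Tsn and -7.92 in Stmn2, and for Crybb2 it lies at 0.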

How the data were processed

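Ribosome-bound mRNA from retina was reverse transcribed with oligo(dT) primers and amplified by PCR before paired-end sequencing, without molecular identifiers, so intervals of depth cover counting error only. Alignment by the authors used TopHat 2.0.12 and the mm10 build, and the FPKM that they deposited for each library are Cufflinks 2.2.1 estimates without further normalization between libraries. FPKM are shares of a library, and how paralogs and strands were divided is not given in the sources used here.

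The members and gene lists were chosen with earlier results of these data known. Differences were computed on log2(FPKM + 1), so changes of low genes are understated, and tested two-sided in R 4.3.3 with limma 3.58.1 (variance trend and robust empirical Bayes options, the latter through statmod 1.5.0), with Benjamini-Hochberg adjustment over all genes tested (threshold 0.05). The code was tested on simulated data. The study compared retina and axons of the same animals, and differences between replicates 1 and 2 in retina and Cre-positive SC correlated over the measured genes (r = 0.163 at E17.5 and 0.57 at P0.5), as they did with Cre-negative SC (0.141 and 0.488). The retinal against the axonal change was therefore also fitted with a replicate block in each stage. Named genes are the 12 with the largest gap and the 6 with the highest mean in each direction, in each list the 3 most abundant measured members and up to 6 whose stages did not overlap, and Rpl22. Of the other genes named, those that overlapped or were not measured, Mrpl55, and the genes at the threshold were chosen after their values were seen. Alternatives were the pseudocount, the filter, the scaling, the libraries fitted, the replicate block and single libraries left out. Identifiers and coordinates are those of GENCODE for GRCm38, where 94.6% of the symbols were found, and start windows are from RefSeq (GRCm38.p6). Python 3.11.15, numpy 2.4.6, pandas 2.3.3, Biopython 1.88 and matplotlib 3.10.9 were used. Some genes of the lists and of the naming rule are not reported here.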

Additional observations from a re-analysis of the deposited data

Results flagged for a closer look

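For 21 named genes the difference between P0.5 and E17.5 differed between retina and Cre-positive SC by the interaction test without the replicate block (limma, adjusted p below 0.05), and with the block no gene passed (smallest adjusted p 0.0546). Values are the retinal minus the axonal difference of log2(FPKM + 1). Among mitochondrial and citric acid cycle genes they were -7.95 for Atp5o, -5.45 for Cyc1, -6.99 for Ndufa8, -8.0 for Idh3g and -7.02 for Mdh1. Among proteasome and ubiquitin genes they were -7.93 for Psma7, -9.00 for Psmb4, -5.27 for Psmd1, -7.13 for Psmd7 and -6.41 for Ube2l3. Genes of the translation machinery gave -7.28 for Rpl6, -6.10 for Rplp1 and -7.06 for Eif3h. Neuronal and signalling genes gave -7.92 for Stmn2, -5.77 for Nefl, -7.90 for Gnaq, -7.96 for Ppp3ca and -8.88 for Tsn. The remaining genes were Ndrg1 (-6.30), Hist3h2a (-8.85) and the lens gene Crybb2 (2.68, with an axonal difference of 0). At P0.5 the Cre-positive SC overlapped the Cre-negative SC for Tsn, Gnaq, Ppp3ca and Eif3h and lay under it for Psmd1. The values of these genes are therefore not set apart from background.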

How the results depend on the processing

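With 2 libraries per stage, each count rests on single libraries. Leaving out 1 library leaves a stage with a lone sample that is assumed to vary like the other stage. Genes called by limma then ranged from 0 to 73 higher and from 0 to 879 lower, with 68 and 879 without E17.5 replicate 1, 73 and 130 without E17.5 replicate 2, 0 and 1 without P0.5 replicate 1 and 0 and 0 without P0.5 replicate 2. Genes above ranged from 242 to 894 and genes below from 843 to 1666, with 285 and 1666 without E17.5 replicate 1, 894 and 857 without E17.5 replicate 2, 242 and 1028 without P0.5 replicate 1 and 294 and 843 without P0.5 replicate 2, where fewer samples make separation easier. The retinal change against the axonal one gave 0 to 72 genes higher and 0 to 505 lower. These were 23 and 505 without E17.5 retina replicate 1, 40 and 217 without E17.5 retina replicate 2, 31 and 390 without E17.5 SC replicate 1, 72 and 329 without E17.5 SC replicate 2, and 0 and 0 without any 1 of the retinal or Cre-positive SC libraries of P0.5.

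Between the retinal stages the replicate numbers did not pair the samples, since same-numbered libraries deviated in opposite directions (r = -0.581) and the labels name no shared litter. With the replicate block 0 genes passed in either direction between the stages (unadjusted p under 0.05 for 8 higher and 37 lower), and 0 and 0 for the retinal against the axonal change. For the latter the block fit follows the stated use of the same animals, while same-numbered libraries of retina and Cre-positive SC correlated only weakly at E17.5 (r = 0.163) and more at P0.5 (0.57). A crossed block, chosen after seeing the data, gave 21 higher and 44 lower. A filter on a mean of 1 FPKM gave 1 gene lower. Genes above and below numbered 632 and 347 with median-ratio scaling, 381 and 438 with quantile normalization, 1100 and 2211 with a filter of above 0 FPKM, and 23 and 182 with a gap of at least 1. Genes below numbered 222 with 5 FPKM in 2 libraries and, in alternatives chosen after seeing the data, 322 under all 3 scalings and 303 with 1 FPKM in all 4 libraries. For the retinal against the axonal change, a pseudocount of 0.1 gave 7 genes higher and median-ratio scaling 17 higher and 113 lower. Except where the construction shows it, the cause was not tested.

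Of 2314 values of 148 named genes under the alternatives, 2082 stayed within the spread between replicates, 224 moved further and 8 turned. With median-ratio scaling the log2 difference was 0.10 for Atp5a1, 0.17 for Eef1b2, 0.62 for Eif4a1, 0.15 for Hsf2, 0.24 for Ncam1, 0.07 for Rplp1 and 0.35 for Rps15, and with quantile normalization 0.03 for Eif4a1. The estimated depth did not allow values under 0.138 to 0.212 FPKM (2 kb transcript) to be told from 0.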
